A study of Mus musculus with 6 samples.

Results

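The genes described are 9 receptors for dopamine and noradrenaline, taken by gene symbol from 56941 gene identifiers in the deposited count table. They are the dopamine receptor genes Drd1, Drd2 and Drd5 and the adrenergic receptor genes Adra1a, Adra1b, Adra1d, Adra2a, Adra2c and Adrb1. All 9 were present, and all 9 had enough counts to be tested. The study sequenced poly(A) RNA from the ventral hippocampus of 6 mice, of which 3 carried the genotype label NEGR1_overexpression and 3 the label NEGR1_control. NEGR1 is a cell adhesion molecule of neuronal membranes, and the study addressed its part in working memory and in behaviour that models anxiety and depression. The way in which the overexpression was brought about, and the strain, sex and age of the mice, are not given in the labels used here.

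Dopamine and noradrenaline reach the hippocampus in axons whose cell bodies lie in the brainstem, so the neurons that make these transmitters lie outside the sampled tissue. The D1-class receptors, Drd1 and Drd5, raise cyclic AMP through stimulatory G proteins, and the D2-class receptor Drd2 lowers it through inhibitory ones. Alpha-1 receptors act through Gq on phospholipase C, alpha-2 receptors through inhibitory G proteins, often on the nerve terminal, and beta receptors through stimulatory G proteins. In the hippocampus these receptors are known for their effect on synaptic plasticity, on memory and on the response to novelty and stress.

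The 6 libraries held 30726110 to 38108394 counts each. Values are CPM, the usual counts scaled to library size, after scaling with TMM factors, given as mean ± SD with n = 3 per group unless stated, and folds are overexpression over control. The targeted gene Negr1 (ENSMUSG00000040037) stood at 193 ± 6.88 CPM in the overexpression group and 176 ± 7.28 CPM in the controls (adjusted p = 0.488, edgeR's quasi-likelihood test). All 8 markers listed for the hippocampus and its ventral part were detected in every library, the lowest being Coch at 2.72 CPM. Overexpression replicate 1 stood apart by its choroid plexus markers, which summed to 709 CPM there and to 23.2 to 64.4 CPM in the other 5 libraries. It also had the lowest sum of dentate granule cell markers, at 263 CPM against 310 to 483 CPM elsewhere. Of 13 marker lists 3 had summed levels that did not overlap between the groups, though none of their genes passed the threshold. Among single genes tested 15.1% did not overlap, and no such share was worked out for sums of lists. Oligodendrocyte markers summed to 2948 to 3483 CPM in overexpression and 3707 to 4655 CPM in control libraries, and astrocyte markers to 2075 to 2258 against 2337 to 2548 CPM. Within the astrocyte list only Gfap had groups that did not overlap, at 328 to 401 against 465 to 533 CPM. The groups overlapped for the other astrocyte markers, whose folds ran from 0.904 for Aldoc to 1.04 for Gja1. The third list, of meningeal fibroblasts, went the other way. The part of these lists in the receptor values was not tested.

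Adra1d was the most abundant of the receptor transcripts and Drd2 the least abundant of the 9. Levels of different genes were set side by side as CPM per kb of merged exons, with gene lengths from the GENCODE M21 annotation. Over the 6 libraries Adra1d was at 30.5 ± 3.03 CPM per kb (SD, n = 6), which placed it at the 92.8th percentile of the genes tested. Adra2c followed at 5.35 ± 0.401, Adra2a at 3.95 ± 0.453 and Adrb1 at 3.91 ± 0.288 CPM per kb (SD, n = 6). The remaining members were lower, with Drd5 at 2.03 ± 0.301, Adra1a at 1.39 ± 0.213, Drd1 at 1.11 ± 0.287, Adra1b at 0.911 ± 0.168 and Drd2 at 0.721 ± 0.217 CPM per kb (SD, n = 6). Drd2 was at the 23.0th percentile of the genes tested.

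In that order, Adra1d, Adra2c and the pair of Adra2a and Adrb1 were separate from the genes below them, with ranges over the 6 libraries that did not meet. The ranges of Adra2a and Adrb1 overlapped, and so did each neighbouring pair from Drd5 down to Drd2. The order depended on the length used for 2 genes. Adra1a has 6 annotated transcripts whose exons merge to 8728 bases while the longest transcript has 4282, and with the latter its level was 2.84 CPM per kb, above Drd5. With its longest transcript of 2952 bases, Adrb1 was at 4.47 CPM per kb, above Adra2a. The length of Adra1d is that of its 1 annotated transcript, 1899 bases with 1686 of them coding, so a longer untranslated region than annotated would lower its level per kb.

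**Figure D1:**
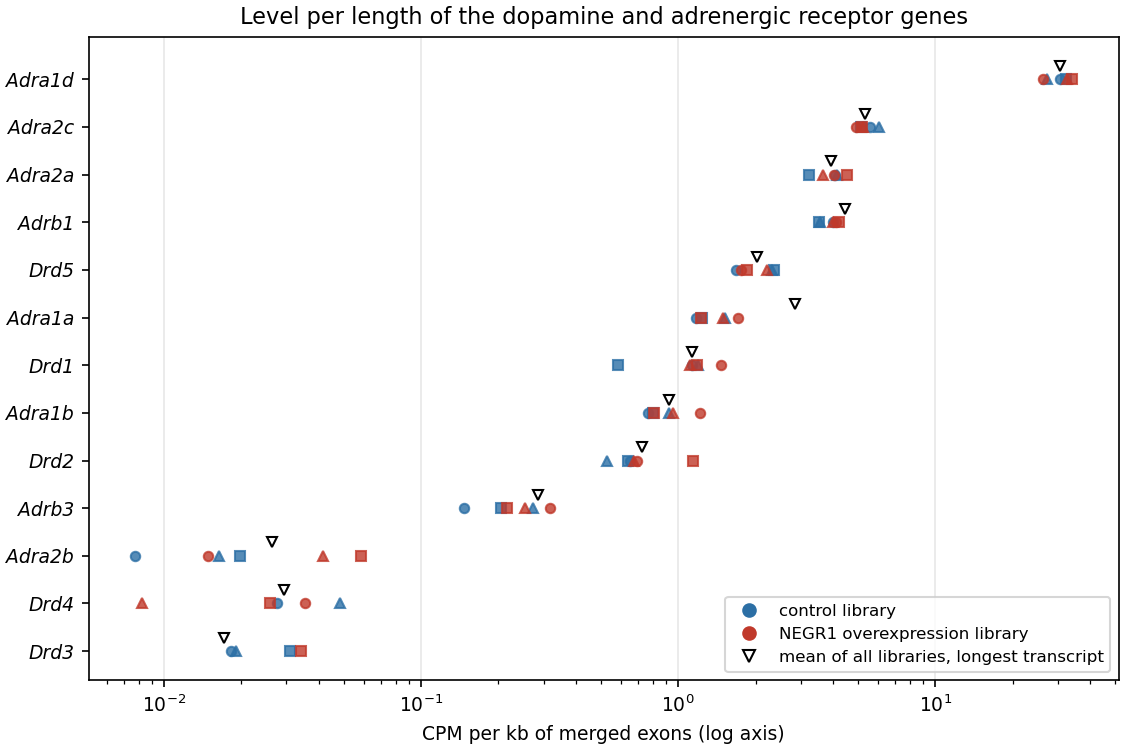
Level of 13 dopamine and adrenergic receptor genes in each library, in CPM per kb of merged exons on a log axis. Circles, squares and triangles are replicates 1, 2 and 3, open triangles are the mean of all 6 libraries with the length of the longest transcript, and libraries with 0 counts of Drd3 or Drd4 are not drawn. Adra1d lies between 26.4 and 34.0, above the 12 other receptor genes drawn.

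None of the 9 receptor genes passed the threshold of the comparison, an adjusted p of 0.05 over the 19354 genes tested with edgeR's quasi-likelihood test. The share of all genes that passed was 0.0465%, which is 9 genes. The count of receptor genes called was also 0 when each library was left out in turn, overexpression replicate 1 among them. At an unadjusted p under 0.05 the count was also 0 of 9 with all 6 libraries, in edgeR and limma-voom with edgeR's default filter. It was 0 of 9 too in DESeq2, which was run without that filter. In edgeR with the default filter 9.24% of all genes lay under 0.05. Fold changes exceeded 1 for 7 of the 9 and had a median of 0.15 on the log2 scale, while 50.4% of all genes tested were above 1 and their median was 0.0015. The groups did not overlap for 1 of the 9, Drd2, and did not overlap for 15.1% of all genes tested.

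**Figure D2:**
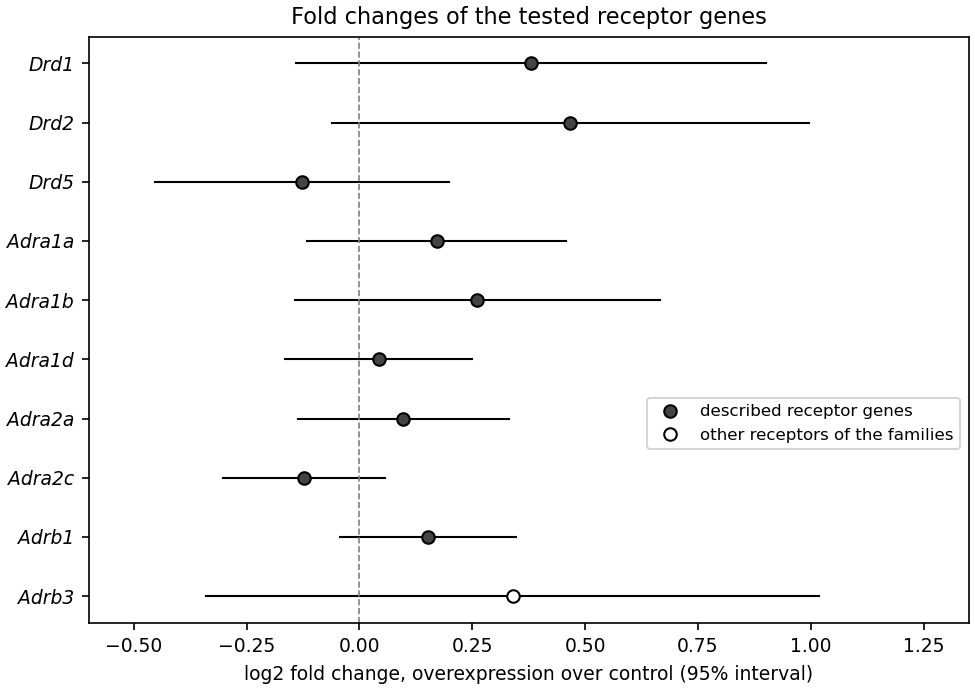
Log2 fold change of overexpression over control for the 9 described receptor genes (filled points) and for Adrb3, a further receptor gene with enough counts to be tested (open point), with 95% intervals from edgeR's quasi-likelihood fit. All 10 intervals include 0, and that of Drd2 reaches from -0.061 to 0.996.

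Among the dopamine receptors, Drd1 and Drd2 were nominally higher in the overexpression libraries and Drd5 nominally lower, none past the threshold. The groups overlapped for Drd1 and Drd5 but not for Drd2. Drd1, the main D1-class receptor gene of the forebrain, was at 5.31, 4.30 and 4.05 CPM in overexpression replicates 1 to 3 and at 4.11, 2.13 and 4.33 CPM in control replicates 1 to 3. Control replicate 2 was low and the other 5 libraries lay between 4.05 and 5.31 CPM, so the groups overlapped. That library had 80 counts of Drd1, with an exact Poisson 95% interval of 1.69 to 2.65 CPM, and the other libraries had 132 to 178 counts. Intervals of this kind cover counting error only. For Drd1 this is a fold of 1.30 (95% interval 0.907 to 1.87, log2 0.38 ± 0.24 SE, edgeR adjusted p = 0.669). Without control replicate 2 the log2 fold change was 0.11. The coefficient of variation of Drd1 was 34.4% among the control libraries and 14.7% among the overexpression libraries, where counting alone gives 8.58%.

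Drd2, the D2-class receptor gene, which in the hippocampus is known from the mossy cells of the hilus, was at 1.76, 2.92 and 1.72 CPM in overexpression and at 1.65, 1.62 and 1.34 CPM in control replicates 1 to 3. Overexpression replicate 2 was high, with 100 counts against 41 to 62 in the other 5 libraries. The groups did not overlap, but the gap between the lowest overexpression and the highest control library was 0.0692 CPM. The Poisson 95% intervals of those libraries were 1.32 to 2.20 and 1.24 to 2.16 CPM, so the gap was smaller than counting error. For Drd2 this is a fold of 1.38 (95% interval 0.958 to 1.99, log2 0.47 ± 0.25 SE, edgeR adjusted p = 0.596). A two-sided exact permutation test gave p = 0.1, and a comparison of 3 with 3 libraries cannot go lower. Without overexpression replicate 2 the log2 fold change was 0.17.

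Overexpression replicate 2 was also the highest library for 9 of the 10 markers listed for dentate granule cells and mossy cells. Its dentate markers summed to 483 CPM, where the other libraries had 263 to 411 CPM. Calb2, which encodes calretinin and marks mossy cells, reached 36.3 CPM there and 20.2 to 29.8 CPM elsewhere, and Csf2rb2, another mossy cell marker, at 6.02 CPM against 3.28 to 4.92 CPM. The sum of the 4 mossy cell markers was 120 to 152 CPM in overexpression and 119 to 130 CPM in control libraries, highest in overexpression replicate 3. Most of this sum was Ociad2, at 99.4 CPM in overexpression replicate 2 and 115 CPM in overexpression replicate 3. Calb2, Csf2rb2 and Nmb were highest in overexpression replicate 2. The part of these differences in the value of Drd2 was not tested. In tissue RNA, fewer cells of a type and less RNA per cell cannot be told apart.

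Drd5, the second D1-class receptor gene, was at 5.55, 5.85 and 6.96 CPM in overexpression and at 5.29, 7.45 and 7.31 CPM in control replicates 1 to 3. Control replicates 2 and 3 were the highest and control replicate 1 the lowest, so the control libraries enclosed the others. For Drd5 this is a fold of 0.915 (95% interval 0.730 to 1.15, log2 -0.13 ± 0.15 SE, edgeR adjusted p = 0.839). Leaving out control replicate 1 gave a log2 fold change of -0.27 and leaving out control replicate 2 gave -0.041. The annotation places Gm26560 on the opposite strand, with 1531 exonic bases shared with Drd5, and the strand setting of the counting is not given. Gm26560 had 15 to 17 counts in overexpression and 2 to 9 in control libraries (edgeR adjusted p = 0.423), and Drd5 had 170 to 280 counts per library. How reads on the shared bases were assigned is not known, so the counts and the level per kb of Drd5 could be too high or too low. Per kb, Drd5 was 1.20 to 4.03 times the level of Drd1, the highest value being that of control replicate 2, and Drd1 was 0.921 to 2.26 times that of Drd2, with overlapping groups in both ratios.

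**Figure D3:**
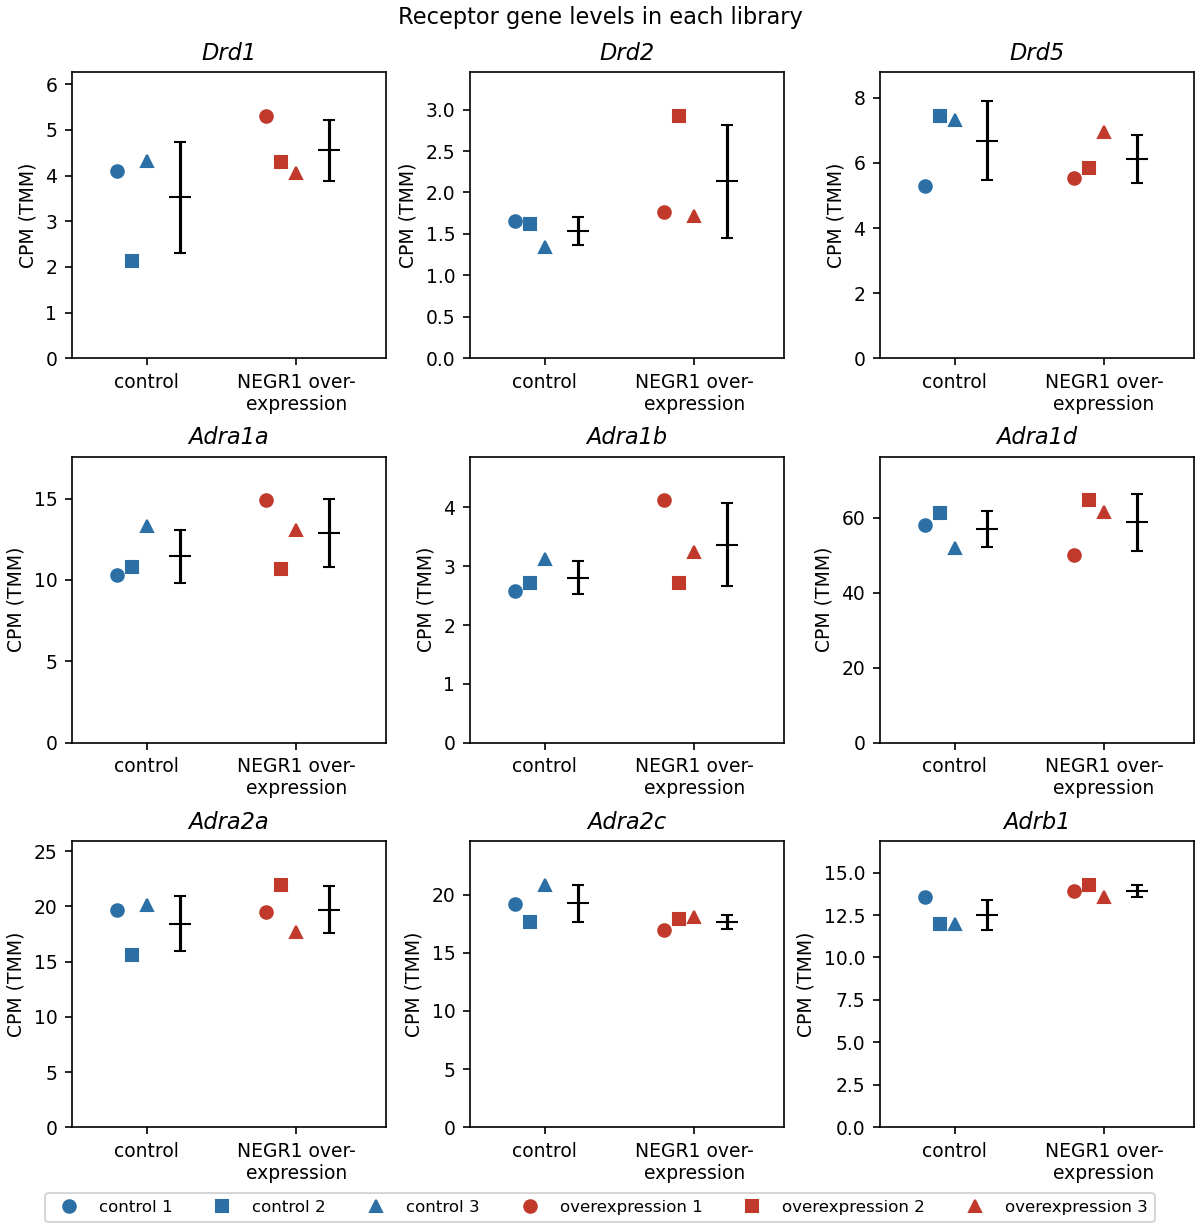
CPM of each of the 9 receptor genes in the 3 control and 3 NEGR1 overexpression libraries, on axes that start at 0. Symbols mark the replicate number and the bars give the mean ± SD of each group. The groups meet or overlap in every panel except that of Drd2, where 1 overexpression library at 2.92 CPM stands above the rest.

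Adra1a and Adra1b had similar patterns across libraries and Adra1d a different one, as seen in the values and without a test. These 3 genes encode the alpha-1 receptors, which signal through Gq to phospholipase C and intracellular calcium. Adra1a was at 14.9, 10.7 and 13.1 CPM in overexpression and at 10.3, 10.8 and 13.3 CPM in control replicates 1 to 3. Adra1b was at 4.12, 2.72 and 3.25 CPM in overexpression and at 2.58, 2.71 and 3.11 CPM in control replicates 1 to 3. Both were highest in overexpression replicate 1 and lowest in control replicate 1, and for both the groups overlapped. The coefficient of variation of Adra1b was 21.0% among overexpression and 9.86% among control libraries, where counting alone gives 9.77%. In these libraries the folds were 1.13 for Adra1a (95% interval 0.923 to 1.37, edgeR adjusted p = 0.730) and 1.20 for Adra1b (95% interval 0.905 to 1.59, edgeR adjusted p = 0.707). Without overexpression replicate 1 the log2 fold changes were 0.055 in place of 0.17 for Adra1a and 0.091 in place of 0.26 for Adra1b.

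Adra1d was at 50.1, 64.6 and 61.5 CPM in overexpression and at 58.0, 61.1 and 51.9 CPM in control replicates 1 to 3. Here overexpression replicate 1 was the lowest and overexpression replicate 2 the highest, so the overexpression libraries enclosed the control libraries. For Adra1d this is a fold of 1.03 (95% interval 0.892 to 1.19, log2 0.043 ± 0.094 SE, edgeR adjusted p = 0.928). The direction turned without overexpression replicate 2, at a log2 fold change of -0.031, and without control replicate 3, at -0.021. It was 0.14 without overexpression replicate 1. With 1582 to 2298 counts per library, counting alone gives a coefficient of variation of 2.25%, where 13.0% was seen among overexpression and 8.25% among control libraries. An antisense gene, Gm14285, shares 147 exonic bases with Adra1d and had 38 to 74 counts per library.

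The 6 libraries stood in the same order for Adra1d as for the summed dentate granule cell markers, a pattern singled out after the values were seen. From the lowest to the highest, these marker sums were 263 CPM in overexpression replicate 1, 310 in control replicate 3, 327 in control replicate 1, 354 in control replicate 2, 411 in overexpression replicate 3 and 483 CPM in overexpression replicate 2. The list holds 6 genes, among them Prox1, the transcription factor of granule cells, at 68.2 to 137 CPM. Overexpression replicate 1, the lowest for these markers and for Adra1d, had the highest sum of cortical layer markers, at 256 CPM against 178 to 235 CPM, and the highest Adra1a and Adra1b. Within the cortical list Tshz2, at 127 CPM, Cux2 and Foxp2 were highest in that library, while Rorb, Fezf2 and Rspo1 were higher in other libraries. The part of tissue composition in these receptor values was not tested.

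**Figure D4:**
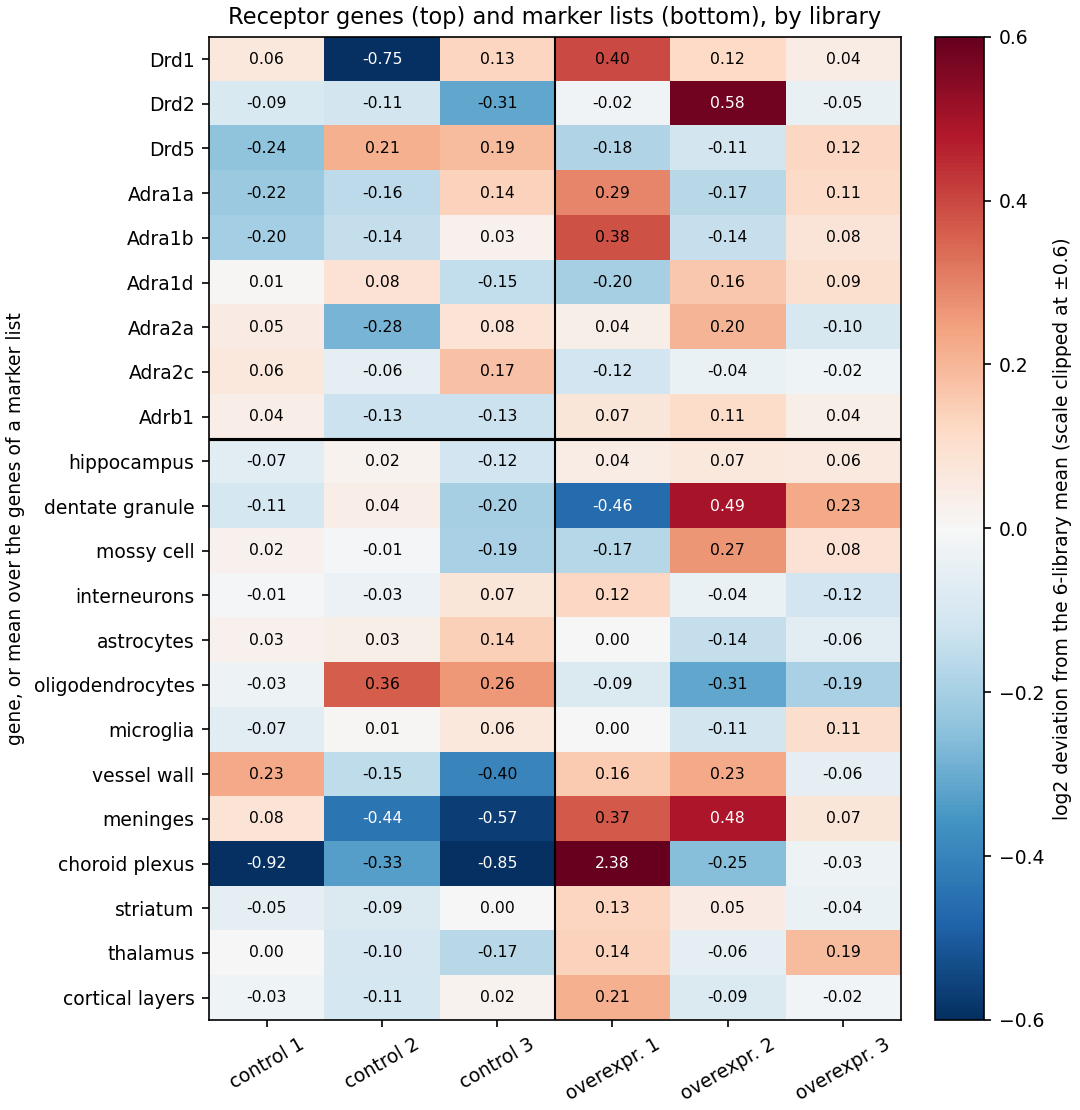
Log2 deviation of each library from the mean of the 6 libraries, on log2(CPM + 0.5), for the 9 receptor genes (top) and as the mean over the genes of 13 marker lists (bottom). Colours are clipped at 0.6 and the number in each cell is the value. Drd1 is at -0.75 in control replicate 2, Drd2 at 0.58 in overexpression replicate 2 and the choroid plexus list at 2.38 in overexpression replicate 1.

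The alpha-2 receptor genes encode autoreceptors and postsynaptic receptors that lower cyclic AMP, and the 2 described here pointed in opposite directions without passing the test. Adra2a was at 19.4, 21.9 and 17.7 CPM in overexpression and at 19.7, 15.6 and 20.1 CPM in control replicates 1 to 3. Control replicate 2 was the lowest library, as it was for Drd1, and overexpression replicate 2 the highest. For Adra2a this is a fold of 1.07 (95% interval 0.910 to 1.26, edgeR adjusted p = 0.827). The log2 fold change was 0.097 with all libraries and -0.014 without control replicate 2. Adra2c was at 16.9, 17.9 and 18.1 CPM in overexpression and at 19.2, 17.7 and 20.8 CPM in control replicates 1 to 3. Of the control libraries only replicate 2 lay within the range of the overexpression libraries. For Adra2c this is a fold of 0.918 (95% interval 0.811 to 1.04, log2 -0.12 ± 0.084 SE, edgeR adjusted p = 0.695), and it stayed below 1 in each of the 6 fits that left out a library. The log2 fold change was -0.063 without control replicate 3.

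Adrb1, the beta-1 receptor gene, whose product couples to stimulatory G proteins, had the smallest coefficient of variation of the 9 genes among overexpression replicates. It was at 13.90, 14.27 and 13.54 CPM in overexpression and at 13.55, 11.99 and 12.0005 CPM in control replicates 1 to 3. Control replicate 1 and overexpression replicate 3 were level, so the groups met without a gap. For Adrb1 this is a fold of 1.11 (95% interval 0.970 to 1.27, log2 0.15 ± 0.091 SE, edgeR adjusted p = 0.644), and an exact permutation test gave p = 0.2. The coefficient of variation was 2.63% in overexpression and 7.15% in control libraries, where counting alone gives 4.72%. Log2 fold changes lay between 0.12 and 0.22 when each library was left out in turn. The 4 meningeal fibroblast markers summed to 38.3 to 50.8 CPM in overexpression and 22.3 to 35.5 CPM in control libraries, without overlap. Within this list the groups lay apart for Col1a1 and Col1a2 and overlapped for Lum and Slc6a13. The part of these markers in the value of Adrb1 was not tested.

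A further 4 receptor genes of both families were low. Drd3 and Drd4, the remaining D2-class receptors, had 0 to 2 and 0 to 5 counts per library, and Adra2b, the remaining alpha-2 receptor, had 1 to 8. Drd3, Drd4 and Adra2b did not pass the filter on low counts and were not tested. Drd3 had 0 counts in overexpression replicates 1 and 3, which allows up to 0.0895 and 0.0832 CPM when 3 counts are taken as the limit. Adrb3, the beta-3 receptor gene, was at 0.888 ± 0.173 against 0.703 ± 0.210 CPM (edgeR adjusted p = 0.781). Its value is uncertain because the opposite strand carries Gm45470, with 839 shared exonic bases and 25 to 53 counts per library against 16 to 36 for Adrb3.

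Th, Dbh, Slc6a3 and Slc6a2, genes that mark the neurons making dopamine and noradrenaline, were low. Ddc and Slc18a2 were higher, Maoa and Maob, which break these transmitters down, were higher still, and no gene of this list passed the threshold. Of 12 genes 9 were tested, 6 with a fold above 1 and 3 below, and the median log2 fold change was 0.088. Th, the rate-limiting enzyme of synthesis, was at 0.638 to 0.872 CPM over the 6 libraries, and Dbh, which turns dopamine into noradrenaline, had 0 to 8 counts per library. Ddc, the next enzyme after Th, which serotonin synthesis also uses, was at 3.55 to 4.58 CPM, and Slc18a2, the vesicular monoamine transporter gene, at 6.89 to 8.83 CPM. Slc6a3, the dopamine transporter gene, had 4 to 12 counts and Slc6a2, the noradrenaline transporter gene, 0 to 4. Maoa, a monoamine oxidase that breaks down catecholamines, was at 29.7 to 36.4 CPM. The smallest p-values in the list were those of Maob, a second monoamine oxidase, at 23.9 to 28.7 against 21.6 to 24.7 CPM (edgeR adjusted p = 0.698), and Gch1, which supplies the cofactor of Th, at 1.85 ± 0.392 against 1.46 ± 0.458 CPM (edgeR adjusted p = 0.724).

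Downstream of the receptors 0 of 64 genes in 6 lists passed the threshold in edgeR's test over all genes, beside the background of 0.0465%. At an unadjusted p under 0.05 there were 7 of 64, where 9.24% of all genes lay under it. The groups did not overlap for 14 of 64, or 21.9%, against 15.1% of all genes, a difference that was not tested. Among 9 G protein alpha subunits 4 were above 1 and 5 below. Gnai1, an inhibitory subunit, was at 228 ± 8.57 against 211 ± 7.65 CPM (edgeR adjusted p = 0.550) and Gnao1, the abundant neuronal one, at 712 ± 5.58 against 746 ± 13.8 CPM (edgeR adjusted p = 0.698). Among 15 adenylyl cyclase and protein kinase A genes 9 were above 1. Prkar2b, a regulatory subunit of protein kinase A, was at 36.3, 37.5 and 39.8 CPM in overexpression and at 30.9, 31.9 and 31.6 CPM in control replicates 1 to 3. The groups lay apart by 4.36 CPM at a fold of 1.20 (95% interval 1.10 to 1.32, edgeR adjusted p = 0.215). Adcy1, a calcium-stimulated adenylyl cyclase, was at 1020 ± 23.6 against 927 ± 61.3 CPM (edgeR adjusted p = 0.473).

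Genes that end or limit receptor signals gave values on both sides of 1. Of 10 phosphodiesterase and phosphatase inhibitor genes 8 exceeded 1, and the median was 0.039 on the log2 scale. Pde7b, which breaks down cyclic AMP, was at 16.8, 23.4 and 21.9 CPM in overexpression and at 15.5, 15.0 and 16.3 CPM in control replicates 1 to 3. The groups did not overlap, with overexpression replicate 1 next to the control libraries, and the data gave a fold of 1.33 (95% interval 1.13 to 1.56, edgeR adjusted p = 0.299). Pde1a, a calcium-dependent phosphodiesterase, was at 279 ± 7.16 against 260 ± 3.80 CPM (edgeR adjusted p = 0.536). Of 11 receptor kinase, arrestin and RGS genes 4 were above 1 and 7 below. Rgs4, which speeds the shut-off of Gq and inhibitory G proteins, was at 143 ± 5.52 against 128 ± 6.22 CPM (edgeR adjusted p = 0.429), and Rgs14, an RGS protein of hippocampal area CA2, at 53.2 ± 6.62 against 62.7 ± 5.01 CPM (edgeR adjusted p = 0.457).

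The Gq effectors, which serve the alpha-1 receptors, had 3 of 7 genes above 1, the median being -0.046 on the log2 scale. Plcb4, a phospholipase C, was at 27.3 ± 2.92 against 24.4 ± 0.955 CPM (edgeR adjusted p = 0.575) and Plcb3, another, at 20.8 ± 1.23 against 23.0 ± 1.20 CPM (edgeR adjusted p = 0.595). Of 12 genes known to be induced through cyclic AMP and CREB, 4 were above 1 and 8 below, with a median of -0.077. For Fos, Junb, Nr4a1, Arc and Npas4 overexpression replicate 3 lay above every control library and overexpression replicates 1 and 2 lay below. Arc was at 63.2, 69.8 and 133 CPM in overexpression replicates 1 to 3 and at 92.6 to 110 CPM in control libraries. The rest of the list was not split in this way. Egr1, an activity-induced transcription factor, was at 79.4, 67.0 and 96.7 CPM in overexpression and at 101, 121 and 105 CPM in control replicates 1 to 3, without overlap (fold 0.743, edgeR adjusted p = 0.456). Bdnf, a neurotrophin gene, was at 35.8 ± 4.11 against 33.3 ± 2.46 CPM (edgeR adjusted p = 0.741).

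**Figure D5:**
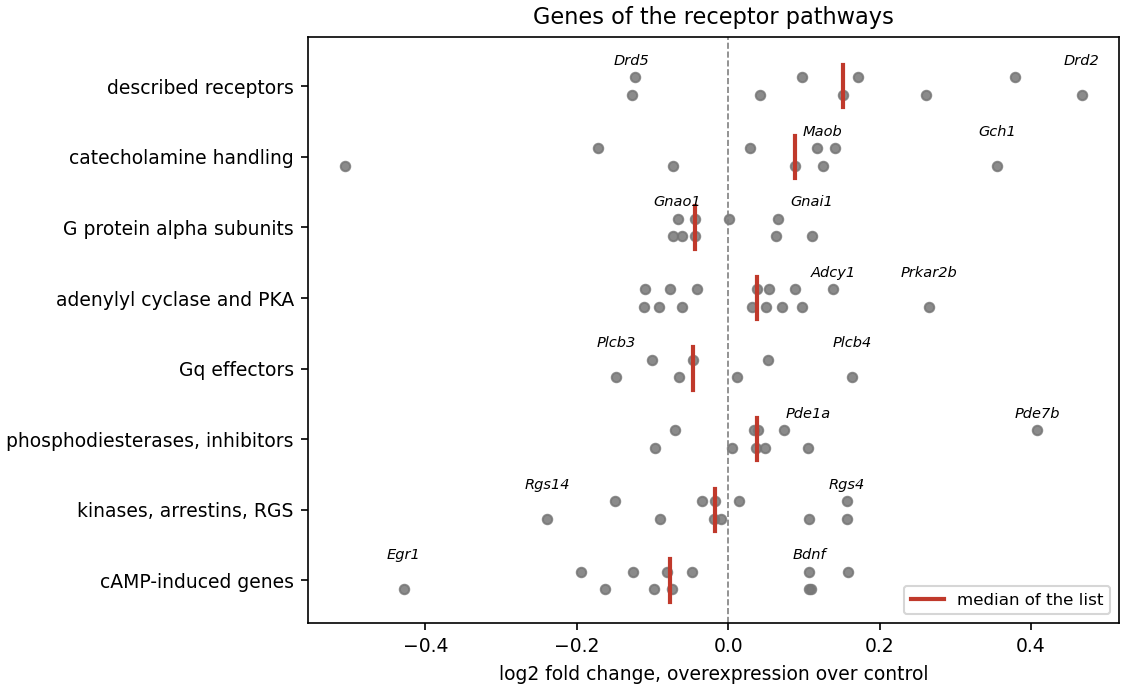
Log2 fold changes of overexpression over control for the tested genes of 7 pathway lists and for the 9 described receptors (top row). Each point is a gene, red bars are the medians, and the genes with the smallest p-values of each list are named, with Drd2 and Drd5 as the highest and lowest receptors. The list medians lie between -0.077 and 0.15.

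Genes whose CPM followed a receptor gene most closely over the 6 libraries were looked up among the 11949 or 11950 other genes with a symbol and a mean of at least 5 CPM. The measure was Pearson's r of log2(CPM + 0.5), which with 6 libraries reached 0.987 to 0.996 for the closest gene of each receptor and over 0.9 for 50 to 162 genes. Drd1 was closest to Nqo2 (r = 0.996), Drd2 to Tmem159 (r = 0.993) and Drd5 to Sorl1 (r = 0.995). Adra1a was closest to Gja1, the astrocyte gap junction gene, at 241 to 269 CPM (r = 0.995), Adra1b to Xxylt1 (r = 0.987) and Adra1d to Dhodh (r = 0.990). Adra2a was closest to Mtg2 (r = 0.990), Adra2c to Sbf2 (r = 0.995) and Adrb1 to Ogn, a matrix gene of fibroblasts, at 3.86 to 14.0 CPM (r = 0.992). These are descriptions of 6 libraries that share groups and tissue composition, and no test was made of them.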

How the data were processed

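Per the labels' protocols, mRNA was selected by its poly(A) tail from Trizol extracts and second strands were marked with dUTP. The authors deposited raw counts for each Ensembl gene in a single table, and 0 of its per-sample columns were left out. The submitters' processing notes name Trimmomatic 0.36, STAR 2.7.10, featureCounts 2.0.3, mm10 and GRCm39 but say nothing of their roles. Neither the annotation nor the strand setting used in counting is given in the sources used here, and no coordinates are printed. Symbols and gene lengths came from GENCODE M21 and covered 51948 identifiers, among them all genes named; 4993 had none and held 0.264 to 0.348% of a library's counts.

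Groups were compared by edgeR's quasi-likelihood test with robust settings (version 4.0.16, R 4.3.3), scaled by TMM and filtered by edgeR's default, with group as the only term, over 19354 genes, adjusted by Benjamini-Hochberg at 0.05. Standard errors came from the F statistic, and exact permutation tests used log2(CPM + 0.5). The fit was also run on simulated counts, whose spread followed that of genes at a similar level. The power to detect a change in a given receptor gene was not measured. No library pair agreed within sampling noise (chi-square per degree of freedom 4.28 to 12.9). The design text speaks of separate mice. Alternatives were other scaling factors and filters, DESeq2 1.42.0, limma 3.58.1 with voom and sample weights, a replicate block and leaving out each library.

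The members and lists were chosen with earlier results of these data known. Named by rule were 13 receptor genes of both families, Negr1, the genes of each pathway list past the threshold or else the 2 with the smallest p, and the gene most alike to each member. Genes outside it are named for a stated reason: markers, genes overlapping a receptor gene, and Th, Dbh, Ddc, Slc18a2, Slc6a3, Slc6a2 and Maoa for their roles. Fos, Junb, Nr4a1, Arc and Npas4 are named for their split among the overexpression libraries. A few genes of the lists are not reported here, and the counts and medians of the lists leave them out.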

Additional observations from a re-analysis of the deposited data

How the results depend on the processing

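Over 13 alternatives, none of which brought any of the 9 receptor genes past the threshold, 114 of 117 fold changes kept their direction, and the smallest adjusted p was 0.396, for Drd2 without overexpression replicate 1. The other 3, which reversed, were fits without 1 library: Adra1d at -0.031 and -0.021 without overexpression replicate 2 and control replicate 3, and Adra2a at -0.014 without control replicate 2. Log2 fold changes over the fits without 1 library ran from 0.11 to 0.55 for Drd1, 0.17 to 0.61 for Drd2, -0.27 to -0.041 for Drd5, 0.055 to 0.29 for Adra1a, 0.091 to 0.39 for Adra1b, -0.031 to 0.14 for Adra1d, -0.014 to 0.17 for Adra2a, -0.18 to -0.063 for Adra2c and 0.12 to 0.22 for Adrb1. In 4 of these alternatives edgeR gave 1 receptor gene an unadjusted p under 0.05. In the test as reported 9.24% of all genes lay under 0.05, and the share in these 4 fits was not worked out. The receptor genes and fits follow. Drd1 was at 0.0295 with no filter on low counts (edgeR adjusted p = 0.552). Drd2 was at 0.0430 without overexpression replicate 1 (edgeR adjusted p = 0.396) and at 0.0385 without overexpression replicate 3 (edgeR adjusted p = 0.734). Adra1a was at 0.0390 without overexpression replicate 2 (edgeR adjusted p = 0.495).

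The number of all genes called moved more: 9 in the test as reported, 103 with DESeq2, 304 with no filter, 5 with a filter of 1 CPM in 3 libraries and 2 to 63 when 1 library was left out (2 without control replicate 2, 3 without control replicate 3, 5 without overexpression replicate 2, 39 without control replicate 1 and 63 without overexpression replicate 1). The cause was not tested. With the replicate number as a block 26 genes were called, 0 of them receptor genes. The numbers did not pair the samples by the rule applied: deviations from the group means correlated at 0.017, 0.017 and 0.023 in same-numbered libraries, although each library correlated best with its own number. Drd2, with 41 to 100 counts per library, was the member most limited by depth.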
